A study of Mus musculus with 8 samples.

Results

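The EGR genes and other immediate-early response genes were followed in sorted mouse colon fibroblasts: Egr1, Egr2, Egr3, Ier2, Ier3, Ier5, Dusp1, Zfp36, Btg2 and Gadd45b. Each gene was taken from the array row, called a transcript cluster, whose annotation named that gene alone, and from the brightest such row where there were several. All 10 genes were measured, out of 30748 genes with a row of their own. Of the 10, 9 were among the 17232 genes that passed a filter on dim rows and were tested. Ier3 did not pass. The filter, at 5.36 (log2), lay below 6.73, the middle value of the array's negative controls. Shares over all genes tested therefore include genes below that value.

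RNA came from the colons of wild-type C57BL/6J mice. Cells lacking Epcam, CD45 and CD31 and carrying gp38 (podoplanin) were split by flow cytometry into a CD90-negative and a CD90-positive population, with 4 samples and 4 arrays each. The mice numbered 4, and no label ties a sample to a mouse or gives an age, so the p-values below measure the spread between these samples. Samples are called by their title numbers, which are 13, 15, 17 and 19 for CD90-negative and 14, 16, 18 and 20 for CD90-positive. Values are log2 expression as deposited, and a positive difference means more in CD90-positive cells. The deposited scale reached 19.9, beyond the range of a 16-bit scan, so folds apply to that scale and are not ratios of RNA amounts.

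Immediate-early genes are transcribed within minutes of a stimulus, before any new protein is made. Growth factors and stress activate MAP kinases, which act through the serum response factor SRF with its ELK partners, and through CREB, on sites close to the start of these genes. Their products then either drive a second wave of transcription, as the EGR zinc finger factors do, or shut the response down again by removing phosphate from kinases, degrading messenger RNA or slowing the cell cycle. In freshly isolated cells they are also known to respond to tissue digestion and sorting.

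The sites through which such genes are known to respond can be read in the promoters. RefSeq promoter windows (build GRCm38.p6, 250 bases before to 50 after a start) were found for 7 of the 10 genes, namely Egr2 with 5 starts and Ier3, Ier5, Dusp1, Zfp36, Btg2 and Gadd45b with 1 each. The 200 bases before the start are shown for the 5 genes whose windows held a searched motif. They run 5′ to 3′ on the gene's strand, with the motifs named next in capitals. For Egr2, 1 of its 5 starts is shown. Capitals mark the serum response element core (CArG box) and an EGR site in Zfp36, a CArG box in Egr2, the cAMP response element in Dusp1 and Btg2, and the TATA core in Gadd45b.
Zfp36, chr7:28379229-28379428, minus strand: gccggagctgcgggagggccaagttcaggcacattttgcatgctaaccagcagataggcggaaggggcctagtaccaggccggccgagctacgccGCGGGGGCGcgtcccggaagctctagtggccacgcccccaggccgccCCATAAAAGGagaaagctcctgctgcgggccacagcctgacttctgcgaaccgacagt
Egr2, chr10:67537669-67537868, plus strand: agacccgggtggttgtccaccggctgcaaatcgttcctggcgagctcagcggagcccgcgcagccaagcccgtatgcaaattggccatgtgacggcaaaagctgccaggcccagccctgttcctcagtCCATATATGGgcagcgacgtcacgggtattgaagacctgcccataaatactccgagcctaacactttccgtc
Dusp1, chr17:26508473-26508672, minus strand: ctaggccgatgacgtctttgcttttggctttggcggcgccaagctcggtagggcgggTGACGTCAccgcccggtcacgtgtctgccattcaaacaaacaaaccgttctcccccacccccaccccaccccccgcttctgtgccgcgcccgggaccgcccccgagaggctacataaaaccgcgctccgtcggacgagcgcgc
Btg2, chr1:134079156-134079355, minus strand: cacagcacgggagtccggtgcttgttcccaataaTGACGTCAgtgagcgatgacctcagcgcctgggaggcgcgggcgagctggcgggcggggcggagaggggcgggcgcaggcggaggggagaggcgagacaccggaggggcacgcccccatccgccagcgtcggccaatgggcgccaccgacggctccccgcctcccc
Gadd45b, chr10:80929891-80930090, plus strand: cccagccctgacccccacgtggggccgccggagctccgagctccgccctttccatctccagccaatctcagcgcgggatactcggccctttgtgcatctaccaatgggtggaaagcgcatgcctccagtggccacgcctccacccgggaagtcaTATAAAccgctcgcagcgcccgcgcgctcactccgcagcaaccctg
The CArG box began 58 bases before the start in Zfp36 (CCATAAAAGG) and 72 bases before the start shown in Egr2 (CCATATATGG). Another Egr2 start had a different CArG box, CCTTTTTTGG, also 72 bases before it. In Zfp36 the EGR site GCGGGGGCG, letters that EGR proteins are known to bind, began 105 bases before the start. Only this exact form of the EGR site was searched, and binding was not measured. The cAMP response element TGACGTCA began 143 bases before the start of Dusp1 and 166 bases before that of Btg2, and TATAAA 46 bases before that of Gadd45b. Both strands were searched. Of all 32851 promoter windows, 1.63% held a CArG box, 1.79% TGACGTCA, 2.91% GCGGGGGCG and 13.6% TATAAA. The shorter TGACG, which lies within TGACGTCA, was in 20.8% of windows and in those of Egr2, Dusp1 and Btg2. Where it stands outside TGACGTCA, it is left in lower case above. None of these motifs was found in the windows of Ier3 and Ier5, which says only that these letters are not there.

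In the CD90-positive population, 6 of the 9 tested genes were higher, 0 were lower and 3 did not pass the test (limma, adjusted p under 0.05 over all genes tested). Higher were Gadd45b, Ier2, Dusp1, Egr3, Egr1 and Btg2, by 1.41-fold to 1.93-fold. Over all genes tested, 14% were called higher and 15.7% lower, together 29.6%. The median difference of the 9 genes was 0.53 (log2), against -0.014 over all genes tested, and all 9 differences were above 0, as were 47.7% of all. Values of the populations did not overlap for 7 of the 9 genes, each of them higher in CD90-positive cells, while 32.2% of all genes tested did not overlap, 14.9% in that direction. Each of the 9 genes lay above the filter on dim rows in all 8 arrays, so none entered the test through 1 population alone. In sorted bulk RNA, fewer responding cells and less RNA per cell cannot be told apart.

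**Figure D1:**
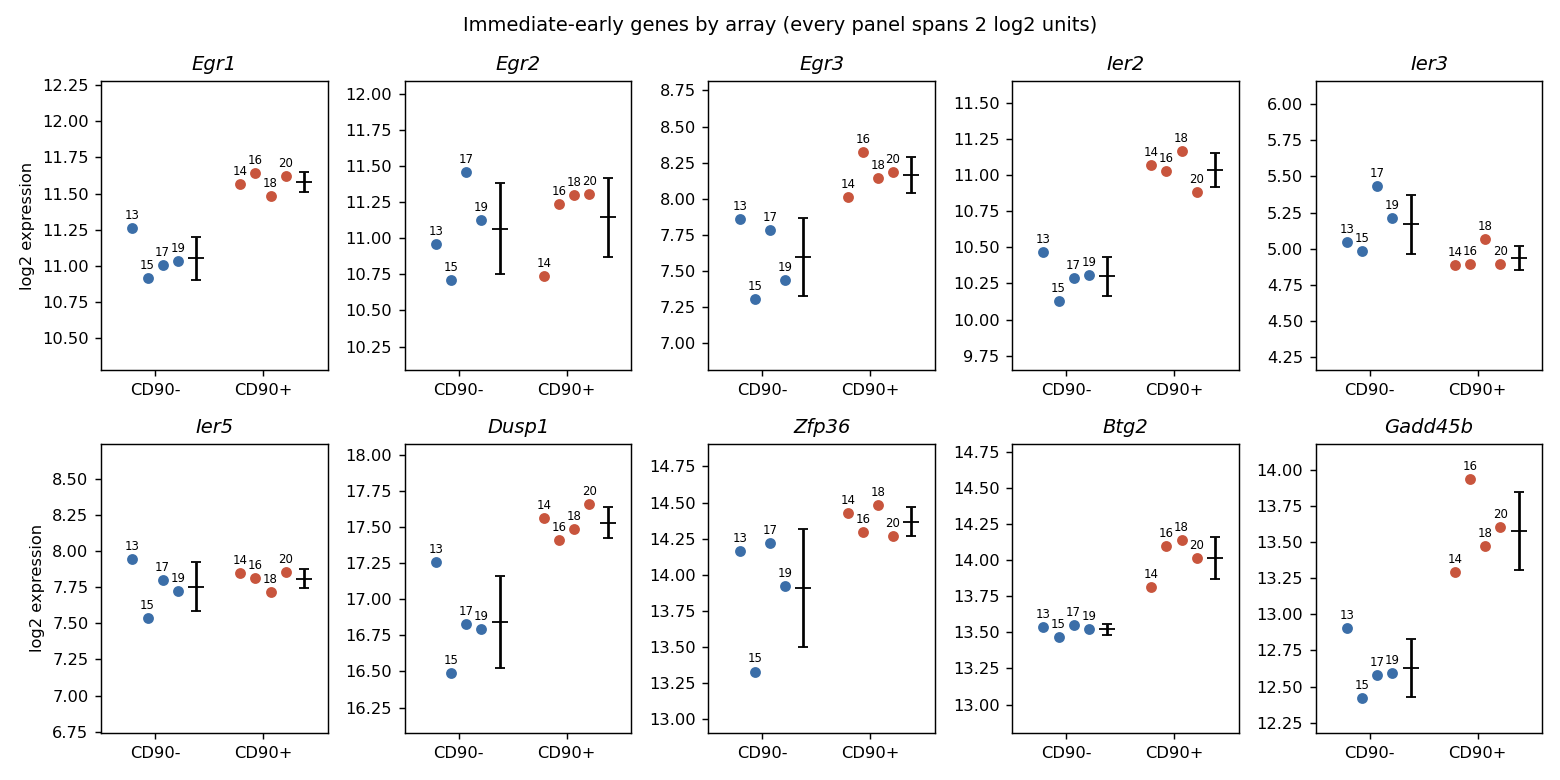
Log2 expression (vertical axis) of each gene in the 4 CD90- arrays (blue) and the 4 CD90+ arrays (red), labelled by sample number, with the mean ± SD of each population in black. All panels span 2 log2 units, so distances compare across panels while levels do not, and 7 of the 10 panels show every red point above every blue one.

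Among the EGR genes, Egr1 and Egr3 were higher in CD90-positive fibroblasts. Egr1, the founding member of the family and the one induced by the widest range of stimuli, was at 11.26, 10.91, 11.01 and 11.03 in CD90-negative samples 13, 15, 17 and 19. In CD90-positive samples 14, 16, 18 and 20 it was at 11.56, 11.64, 11.49 and 11.62. Every CD90-positive value lay above every CD90-negative one, and sample 13 was the closest to the other population. Means were 11.05 ± 0.15 and 11.58 ± 0.071 (SD, n = 4 each), a difference of 0.53 with a standard error of 0.084 (1.44-fold, limma adjusted p = 0.00171).

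Egr3, an EGR factor known from muscle spindles and lymphocytes, read 7.86, 7.31, 7.79 and 7.44 in CD90-negative samples 13, 15, 17 and 19, and 8.02, 8.32, 8.14 and 8.19 in CD90-positive samples 14, 16, 18 and 20. The populations did not overlap, with a gap of 0.15 between sample 13 and sample 14. The difference was 0.57 with a standard error of 0.13 (limma adjusted p = 0.0122). Of the other rows that named Egr3 alone, 1 ran from 6.98 to 7.72 in CD90-negative and from 7.86 to 8.41 in CD90-positive samples. The remaining row ran from 6.2 to 6.37 and from 6.71 to 7.12, so in neither row did the populations overlap. In this last row all CD90-negative values, and sample 14 at 6.71, lay below 6.73, the middle value of the array's negative controls.

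Egr2, which directs myelination in Schwann cells, was spread alike in both populations. Its CD90-negative values were 10.96, 10.71, 11.46 and 11.13 in samples 13, 15, 17 and 19, and its CD90-positive values 10.74, 11.23, 11.30 and 11.30 in samples 14, 16, 18 and 20. Sample 14 lay as low as sample 15, and sample 17 was the highest of all 8. The difference of 0.078 had an interval from -0.33 to 0.49 (limma adjusted p = 0.788), which holds no difference as large as that of Egr1 but does hold one close to it. Set against Egr2 on the same array, Egr1 was higher by 0.45 in CD90-positive samples (-0.013 ± 0.34 and 0.44 ± 0.28, n = 4 each, two-sided exact permutation test, p = 0.0857) and Egr3 by 0.49 (exact permutation p = 0.0857). These comparisons within an array were chosen after the values were seen. Neither passed 0.05, so a difference in response between Egr2 and the other EGR genes was not shown.

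Of the IER genes, which carry the name immediate early response but share no single function, Ier2 was higher in CD90-positive cells. This nuclear protein gene was at 10.47, 10.13, 10.29 and 10.31 in samples 13, 15, 17 and 19 and at 11.07, 11.03, 11.17 and 10.88 in samples 14, 16, 18 and 20. The gap between the populations, 0.41, was the widest among the 10 genes. The difference was 0.74 with a standard error of 0.091 (1.67-fold, limma adjusted p = 0.000389).

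Ier5, a regulator of heat shock factor activity, gave 7.95, 7.54, 7.80 and 7.73 in CD90-negative and 7.85, 7.82, 7.71 and 7.86 in CD90-positive samples, in the same sample order. All CD90-positive values fell within the CD90-negative range. Its difference was 0.057 with an interval from -0.15 to 0.26 (limma adjusted p = 0.688). Measured against Ier5 on the same array, Ier2 was higher by 0.68 in CD90-positive samples without overlap. The pair was chosen after the values were seen, so this is a description with no test given.

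Ier3, which is known to affect survival under stress, was dim. It lay between 4.98 and 5.43 in CD90-negative and between 4.89 and 5.06 in CD90-positive samples, and reached the filter at 5.36 on 1 array only, sample 17. All its values were below 6.73, the middle value of the array's negative controls. It was the only one of the 10 genes with a negative difference, -0.23, and without the filter it was not called (limma adjusted p = 0.182).

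The genes that end the response were higher or, for Zfp36, separated without passing the test. Dusp1 codes for a nuclear phosphatase that switches off MAP kinases, and its promoter holds the cAMP response element shown above. It read 17.26, 16.49, 16.83 and 16.79 in CD90-negative samples 13, 15, 17 and 19, and 17.56, 17.41, 17.49 and 17.66 in CD90-positive samples 14, 16, 18 and 20. CD90-positive values stayed within 0.25 of each other while CD90-negative ones spanned 0.77, from sample 15 to sample 13. The difference was 0.69 with a standard error of 0.15 (1.61-fold, limma adjusted p = 0.00827).

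Zfp36 codes for tristetraprolin, which binds AU-rich elements and hastens the decay of cytokine and immediate-early messenger RNA. Its values were 14.17, 13.33, 14.22 and 13.92 in samples 13, 15, 17 and 19 and 14.43, 14.30, 14.48 and 14.27 in samples 14, 16, 18 and 20. The populations were separated by 0.046 only, and sample 15 lay apart at the low end. The difference of 0.46 had a standard error of 0.18 (limma adjusted p = 0.0941), so it was not called. Without sample 15 it came to 0.26. With neighbouring title numbers as pairs, which no label states, it was called (limma adjusted p = 0.0471).

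Both growth arrest genes rose. Btg2, an antiproliferative cofactor of deadenylation and a target of p53, was tightly grouped in CD90-negative cells at 13.53, 13.47, 13.55 and 13.53 (samples 13, 15, 17 and 19). CD90-positive samples 14, 16, 18 and 20 gave 13.81, 14.09, 14.14 and 14.01, with sample 14 the lowest. The CD90-negative SD of 0.036 was the smallest among the 10 genes in that population. The difference was 0.49 with a standard error of 0.080 (1.41-fold, limma adjusted p = 0.00182).

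Gadd45b, a stress sensor that binds an upstream kinase of the MAP kinase cascade, had the highest difference of the 10. CD90-negative values were 12.90, 12.42, 12.58 and 12.60 and CD90-positive values 13.29, 13.94, 13.47 and 13.60, in the sample order used above. No values overlapped, and sample 16 was the highest and sample 14 the lowest of the CD90-positive arrays. The difference was 0.95 with a standard error of 0.15 (1.93-fold, limma adjusted p = 0.00155). Of all genes tested, 7.92% had a larger difference in either direction.

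**Figure D2:**
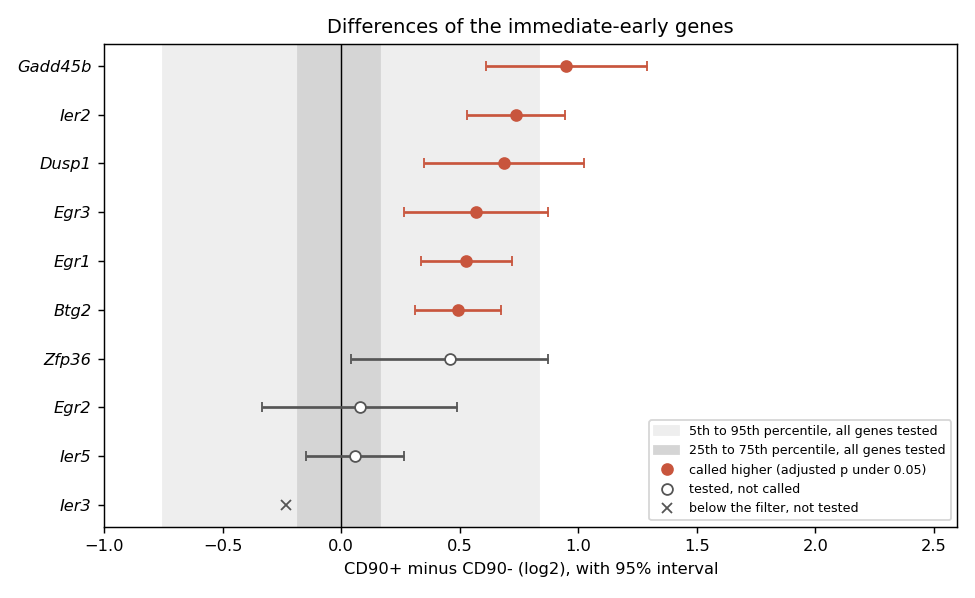
Difference between the populations (horizontal axis, CD90+ minus CD90-, log2) for each gene with its 95% interval from limma, filled where called higher; the cross marks Ier3, which was not tested. The 6 called genes lie between 0.49 and 0.95, above the 75th percentile of all genes tested (0.17, dark band), and Gadd45b alone lies above the 95th (0.84, light band).

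Within the CD90-negative population the genes tended to be high or low on the same arrays. Sample 15 had the lowest value of all 9 tested genes, and sample 13 the highest of 6 (Egr1, Egr3, Ier2, Ier5, Dusp1 and Gadd45b), with sample 17 the highest of the other 3 (Egr2, Zfp36 and Btg2). On average the 9 genes stood 0.26 below their CD90-negative mean in sample 15 (mean deviation -0.26) and 0.19 above it in sample 13. CD90-positive arrays stood closer together, between -0.10 in sample 14 and 0.062 in sample 16, and sample 14 was lowest for 4 genes. The arrays share their normalization and the genes are not independent of each other. Among the lists described below, sample 15 also had the lowest CD90-negative mean of the AP-1 (10.93), fibroblast (15.06), smooth muscle (9.80) and epithelial (8.07) lists. It had the highest CD90-negative mean of the heat shock (13.29) and leukocyte (5.25) lists. How often all genes tested had their extremes in these samples was not counted, so the pattern is not shown to be particular to these genes. Leaving out sample 15 left 6 genes called higher, and so did leaving out sample 13.

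**Figure D3:**
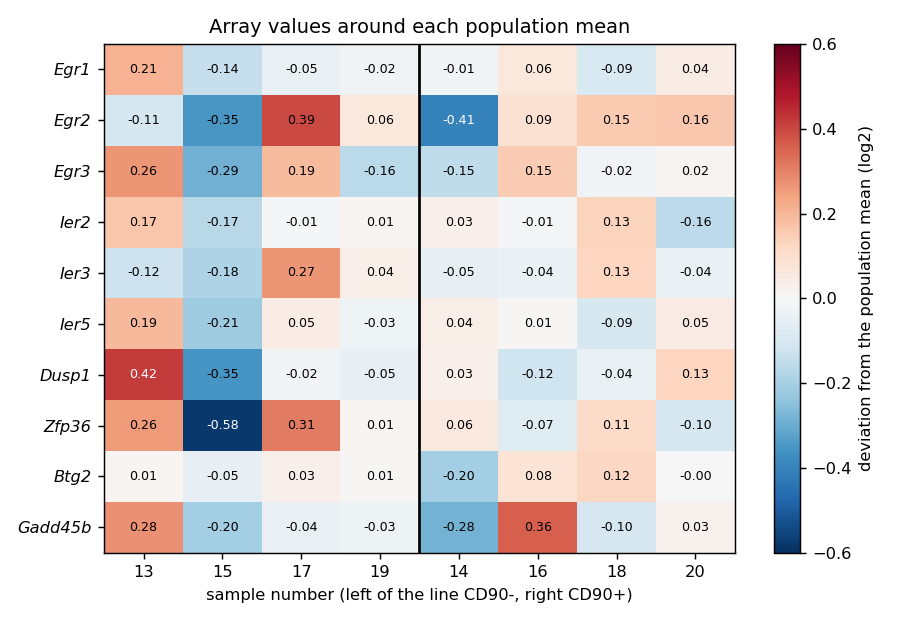
Deviation of each array (columns, sample numbers) from the mean of its own population for each gene (rows), in log2 units, red above and blue below. Sample 15 is blue for every gene and sample 13 red for 8 of 10, while deviations in the CD90-positive columns are mostly smaller.

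Other immediate-early genes, from lists that leave out the 10, moved mostly the same way. Of the 7 tested AP-1 genes, 4 were higher and 0 lower (median difference 0.62), against 14% and 15.7% of all genes tested. Junb shares its row with another gene and Fosl1 was below the filter. Atf3, a stress-induced factor of the ATF family, rose from 13.09 ± 0.14 to 14.38 ± 0.13 (limma adjusted p = 1.85e-05), Jun by 0.57 and the small MAF factor gene Maff by 0.62. Maff was dim: its CD90-negative mean of 6.15 lay below the negative control median of 6.73 and its CD90-positive mean of 6.77 near it. Fos rose by 0.64 from 15.53 ± 0.42 (limma adjusted p = 0.0305), but it lost its call when any 1 of samples 14, 16, 17, 18, 19 and 20 was left out (adjusted p up to 0.0729) and under both other scalings (up to 0.0812). Fosb was at 17.46 ± 0.47 and 17.69 ± 0.089 (limma adjusted p = 0.438).

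Of 15 other immediate-early transcription factors, 10 were higher and 1 lower (median difference 0.54), against 14% and 15.7% of all genes tested. Klf4, a Krüppel-like factor of differentiating cells, rose from 11.95 ± 0.82 to 14.08 ± 0.10, and Cebpd, an acute-phase factor, from 10.49 ± 0.47 to 11.56 ± 0.14. The orphan nuclear receptors Nr4a1 and Nr4a3 rose by 1.31 and 0.54, and Klf6 by 0.55. The one that fell was Bhlhe40 (chosen after its values were seen), a circadian repressor, by 0.60. Of 18 tested immediate-early genes with other functions, 8 were higher and 1 lower (median difference 0.37). Ccl2 and Cxcl1, chemokines for monocytes and neutrophils, rose by 2.03 and 1.22, and Ccn2, a matricellular protein, from 6.79 ± 0.24 to 7.99 ± 0.24. The CD90-negative mean of Ccn2 lay near the negative control median of 6.73, with sample 13 (6.44) below it. Plk2, a polo-like kinase, fell from 12.72 ± 0.44 to 10.34 ± 0.088 (limma adjusted p = 3.59e-05). Ccn1 was at 15.08 ± 0.29 and 15.13 ± 0.38 and Ptgs2, the inducible cyclooxygenase, at 14.81 ± 0.35 and 14.38 ± 0.31, neither called; Ptgs2 was called lower without sample 15 (limma adjusted p = 0.0375).

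Paralogs of the 10 genes were called in both directions. Of 13 tested, 4 were higher and 2 lower (median difference 0.21). Over all genes tested, 14% were higher and 15.7% lower, so the 2 lower of 13 lie near the share over all genes. The decay factors Zfp36l1 and Zfp36l2, relatives of Zfp36, rose by 0.74 and 0.73, Btg1, the sister gene of Btg2, from 11.29 ± 0.25 to 12.81 ± 0.36, and Gadd45g by 0.82. Gadd45a, a p53 target, fell from 11.07 ± 0.18 to 9.83 ± 0.20 (limma adjusted p = 9.75e-05), opposite to Gadd45b. Dusp6 (chosen after its values were seen), a cytoplasmic phosphatase of ERK kinases, fell by 1.16, opposite to Dusp1. Measured against each other on the same array, Gadd45b minus Gadd45a rose from 1.55 ± 0.12 to 3.75 ± 0.31 and Dusp1 minus Dusp6 from 3.52 ± 0.26 to 5.36 ± 0.47, a description of genes chosen for their opposite differences, with no test given.

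The regulators of the response moved downward or did not pass. Of 12 tested kinases, SRF partners and corepressors, 0 were higher and 5 lower (median difference -0.14), against 14% and 15.7% of all genes tested. Srf fell from 10.41 ± 0.17 to 9.36 ± 0.21 (limma adjusted p = 0.000285) and Mapk14 by 0.47. Nab1 and Nab2, which code for the corepressors that bind EGR proteins, fell by 0.39 and 0.28, and Elk4 (chosen after its values were seen) by 0.16. Elk4 lost its call when any 1 of the 8 samples was left out (limma adjusted p up to 0.102). Nab2 lost its call when any 1 of samples 15, 18 and 20 was left out (limma adjusted p up to 0.0618) and when its rows were averaged (0.264). Creb1 was at 12.45 ± 0.20 and 12.30 ± 0.082, and Map2k1 at 10.77 ± 0.037 and 10.98 ± 0.24, neither called, though Map2k1 was called higher without sample 14 (limma adjusted p = 0.0271).

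**Figure D4:**
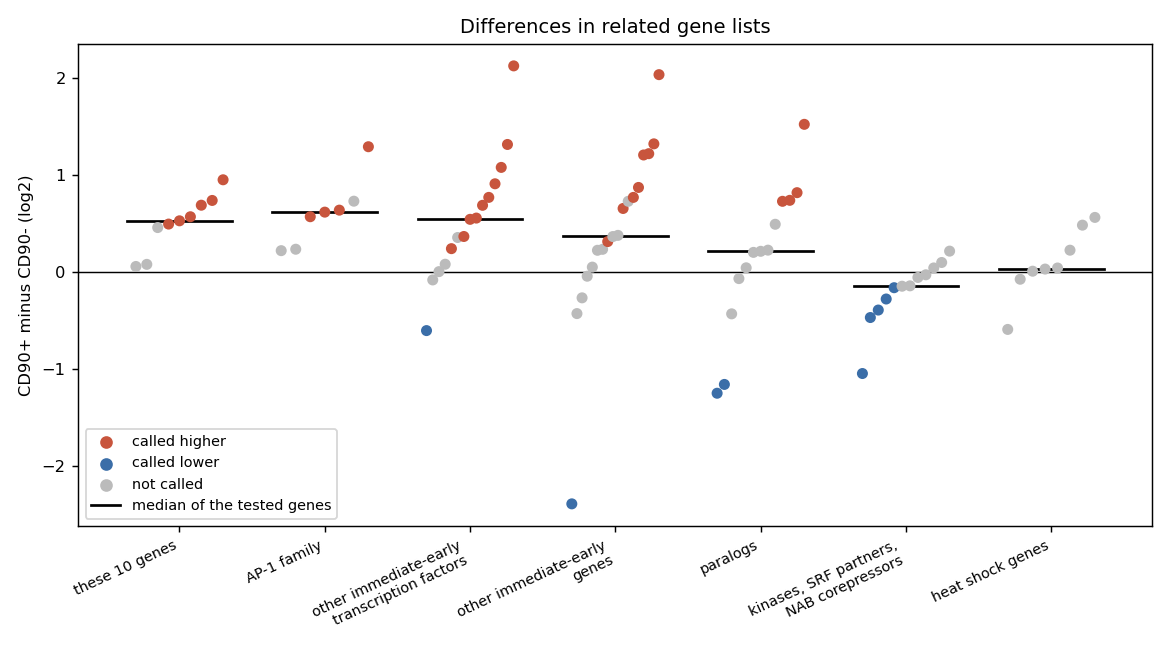
Difference between the populations (vertical axis, CD90+ minus CD90-, log2) for every tested gene of the 10 genes and of 6 related lists, coloured by call, with the median of each list as a bar. Called genes are mostly higher in the first 4 lists, split among the paralogs, and lower for the kinases, SRF partners and corepressors, while none of the heat shock genes was called.

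Heat shock genes, which respond to protein damage through another factor, showed another pattern over the arrays. None of the 8 tested was called in either direction by limma, against 29.6% of all genes tested. Hsp90aa1 alone had an unadjusted limma p under 0.05 (0.0379). It was at 14.88 ± 0.39 and 15.44 ± 0.37 (limma adjusted p = 0.101), and was called higher without sample 14 (0.0467). Dnajb1 and Hspb1 differed by 0.48 and -0.59, and Hspd1, Hspa8 and Hspa1a by less than 0.1, all uncalled. With neighbouring title numbers as an assumed block, Hsp90aa1 (limma adjusted p = 0.00115) and Dnajb1 (0.0037) were called higher and Hspb1 lower (0.0265). Hspa1a is nearly identical to Hspa1b, so its value is uncertain. The mean of the list was 12.14 and 12.20 in samples 13 and 14 and 13.29 and 13.40 in samples 15 and 16. It was 12.57 and 12.65 in samples 17 and 18 and 12.98 and 13.08 in samples 19 and 20. Sample 15, the lowest array for the 10 genes, was thus the highest CD90-negative array for heat shock genes, and sample 13 the lowest. In this list, arrays with consecutive numbers lay closer to each other than to any other array. No label says that they belong together, and the main fit does not pair them.

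The sort and carry-over of other cells were read from their markers. The counts called among them stand beside 14% higher and 15.7% lower over all genes tested. Thy1, the gene of CD90, was at 5.52 ± 0.046 and 7.69 ± 0.47. All 7 measured fibroblast markers were bright on every array, the lowest value being 13.00 for Pdpn, the gene of gp38, in sample 19. Dcn and Lum were called higher in CD90-positive cells by 0.75 and 0.69, Col1a2 was called lower by 0.72 (difference -0.72), and the other 4 were not called. All 5 measured enteric glia markers were called higher in CD90-positive samples, most of all Cdh19 (chosen after its values were seen), which ran from 4.93 to 5.68 in CD90-negative and from 8.97 to 11.74 in CD90-positive samples, a difference of 5.16 (limma adjusted p = 0.00012). The list mean ran from 5.48 to 5.86 and from 6.94 to 8.18. Gfap reached the filter on 4 arrays, all of them CD90-positive, so it entered the test through that population alone. The Gfap mean lay below the negative control median in both populations, though Gfap in sample 20 (6.71) was above that array's own (6.66). Leukocyte markers ran from 5.13 to 5.25 and from 5.27 to 5.66, with 3 of 5 tested called higher (Cd3e, Cd79a and C1qa) and 8 of 9 measured, Ptprc among them, with population means below the negative control median on both sides. Endothelial markers ran from 5.63 to 6.29 and from 5.97 to 6.64, with 1 of 4 tested, Tek, called higher and 6 of 7 measured with both population means below the negative control median. One of these, Pecam1, was at 7.01, 6.69 and 6.81 in samples 16, 18 and 20, above the control medians of those arrays. Smooth muscle markers ran from 9.80 to 10.62 and from 9.75 to 11.25, with 3 of 6 called higher (Actg2, Des and Cnn1) and 2 lower (Acta2 and Tagln). Epithelial markers had 0 of 11 called by limma, none with an unadjusted p under 0.05, but their list mean varied from 8.07 in sample 15 to 10.21 in sample 13 within CD90-negative cells, the same extremes as for the 10 genes, and was 10.25 in sample 20. The median of the negative control rows ran from 6.79 to 6.84 in CD90-negative and from 6.58 to 6.67 in CD90-positive samples. The part of these markers in the results above was not tested.

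**Figure D5:**
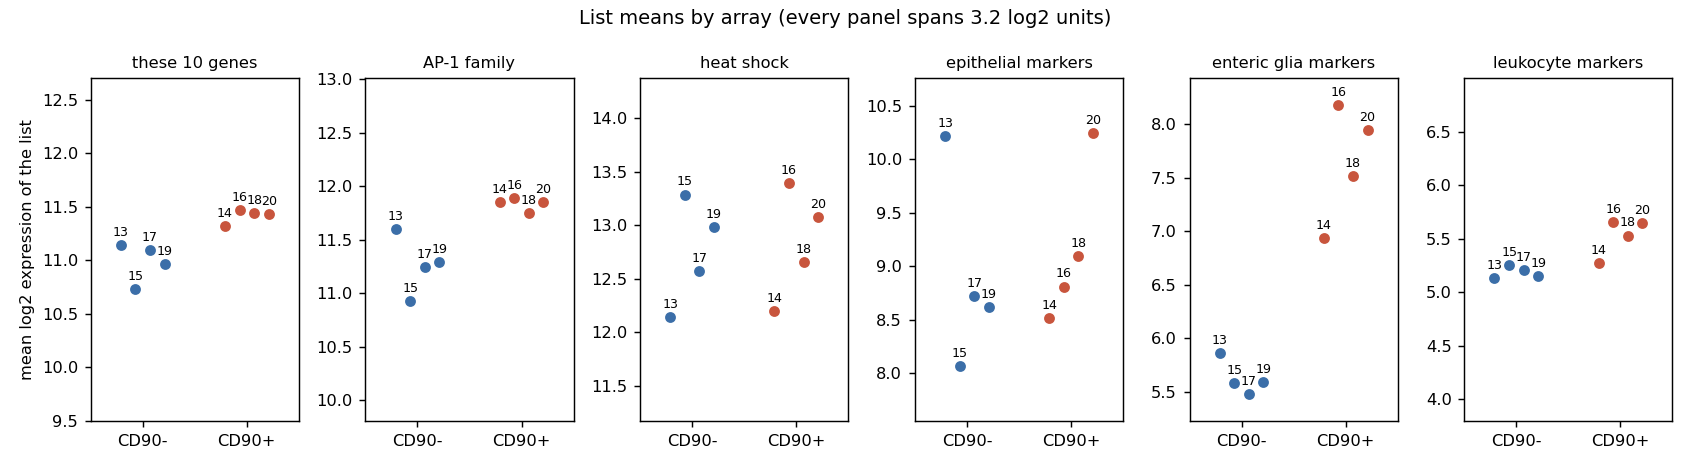
Mean log2 expression (vertical axis) of 6 gene lists on each array, CD90- in blue and CD90+ in red, labelled by sample number, all panels spanning 3.2 log2 units. The means of the 10 genes ran from 10.73 to 11.14 and from 11.32 to 11.47 without overlap, as did those of the AP-1, enteric glia and leukocyte lists, whereas heat shock and epithelial means overlapped.

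Profiles most like those of Egr1 and Gadd45b over the 8 arrays belonged to genes outside the immediate-early lists. After each gene's own mean was subtracted, the smallest root mean square differences from Egr1 were those of Ccdc6 (0.040), Rpn2 (0.057) and Impact (0.058), among 17231 genes compared. Of the other 8 tested among the 10 genes, Egr3 was the nearest (0.13, rank 273), followed by Btg2 (0.13, rank 290), and Egr2 the farthest (0.35, rank 9382). Ier3, below the filter, was not compared. For Gadd45b the nearest were Ndrg1 (0.087), Lamb2 (0.089) and Fads3 (0.097), and Ier2 was the nearest of those tested among the 10 (0.23, rank 253). The genes nearest to Egr1 differed between the populations by 0.50 to 0.55, and those nearest to Gadd45b by 0.88 to 1.06. Such likeness follows from the choice, since profiles were compared over the arrays of both populations.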

How the data were processed

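RNA of 8 sorted samples, 4 per population, was measured on Affymetrix mouse transcriptome arrays. Per the labels' protocols, 2 ng of RNA was amplified and labelled, and the arrays have 1 colour. The authors deposited log2 values per transcript cluster. Per the submitters' processing notes these came from Affymetrix Expression Console 1.1 and RMA, which corrects background, quantile-normalizes arrays and summarises probes. RMA settings are not given in the sources used here. No array coordinates are printed, since no source names their build.

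Of 65956 clusters, 31221 named 1 gene in the platform annotation, 1529 several and 33206 none. Symbols were updated through RefSeq (GRCm38.p6), which gave 30748 genes, each taken from its cluster with the highest mean. Genes reaching 5.36, the median of all cluster values, on at least 4 of 8 arrays were tested with limma 3.58.1 in R 4.3.3 (lmFit, eBayes, two-sided, Benjamini-Hochberg over 17232 genes, threshold 0.05), without a block, and the procedure was tested on simulated data. Exact permutation tests used the 70 assignments of the 8 samples and take them as exchangeable. The genes and lists were chosen with earlier results of these data known. Named were the 10 genes, the sort gate genes, per related list the 4 genes with the smallest p and the 2 with the highest mean, and the 3 profiles nearest to Egr1 and Gadd45b. Alternatives changed the filter, scaling, variance model, array weights, choice of cluster, pairing and samples. Promoters were read from RefSeq windows with Python 3.11.15, and figures drawn with matplotlib 3.10.9.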

Additional observations from a re-analysis of the deposited data

Results flagged for a closer look

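Among 96 groups of 4 samples checked over the genes named, 6 held a sample whose gap to its nearest neighbour exceeded the critical share of the range (Dixon's test), where chance gives about 1 in 20. Egr2 was at 10.74 in CD90-positive sample 14, with the other 3 between 11.23 and 11.30. Ier3 was at 5.06 in CD90-positive sample 18, with the others between 4.89 and 4.90, all below the negative control median. Klf6 was at 12.92 in CD90-negative sample 17, against 13.16 to 13.19. Ccl2 was at 8.46 in CD90-negative sample 15, against 9.68 to 9.75. Pdpn was at 13.54 in CD90-positive sample 14, against 13.06 to 13.11. Ptprc was at 4.74 in CD90-negative sample 15, against 4.49 to 4.53.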

How the results depend on the processing

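Under all 17 alternatives, 8 of which left out 1 sample each, the same 6 genes were called higher and 0 of the 10 lower, except that Zfp36 joined them (7 higher) when consecutive title numbers were taken as a replicate block, a pairing that no label states. The median difference of the 9 tested genes ran from 0.48 to 0.60 without each sample in turn and was 0.48 with arrays centred on their medians. Of the 73 related genes tested, 26 were higher and 9 lower. Without single samples these counts ran from 20 to 31 and from 7 to 9, and with the block they were 30 and 11. Uncalled differences near 0 changed sign. Without sample 15, Egr2 came to -0.039, Ier5 to -0.015 and Hspd1 to 0.057. The leave-one-out ranges were -0.039 to 0.21 for Egr2, -0.015 to 0.12 for Ier5, -0.12 to 0.18 for Ccn1, -0.19 to 0.057 for Hspd1, -0.035 to 0.055 for Hspa8 and -0.22 to 0.35 for Hspa1a. Without samples 13 and 14 Ccn1 was at -0.032 and Hspa8 at -0.020. Ccn1 was at -0.023 with array weights, Hspa8 at -0.035 and Hspa1a at -0.013 with centred arrays, and Hspa1a at -0.066 after a repeated quantile normalization. Heat shock genes had 0 called in either direction except with the block (2 higher, 1 lower) and without sample 14 (1 higher). With 4 arrays a population, the size of a difference that can be called depends on each gene's spread. Signal below the negative control median, as for Ier3, limits what a gene's values show.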
